A study of Mus musculus with 22 samples.

Results

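The genes described here encode the machinery of DNA replication and the factors that switch it on at the start of S phase. They were chosen by symbol and known role, with no measured value in the rule, though earlier results of these data were known at that point. All 44 symbols were found in both deposited tables, among 24819 genes. The 44 genes comprise 4 genes of the E2F and cyclin E step, 12 of origin recognition and licensing, 6 of helicase activation, 5 polymerase and primase genes, 6 of the sliding clamp and its loader, 3 of single-strand binding, 2 of Okazaki fragment maturation, 3 of nucleotide supply, and 3 of chromatin and histone mRNA.

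Polyadenylated RNA was sequenced from the mouse embryonic stem cell line E14, harvested 3 days into knockdown by small interfering RNA (siRNA). The 6 kinds of transfection were siNT with siNT (called siNT, treated here as the control, since the labels do not spell out NT), the single knockdowns siRpl14, siRpl11 and siDux, in which siNT made up the other part of the mix, and the double knockdowns siRpl14+siRpl11 and siRpl14+siDux. The ribosome's large subunit holds the products of Rpl14 and Rpl11, and Dux encodes a transcription factor of the early embryo. All groups share the cell line, the gelatin and leukemia inhibitory factor (LIF) culture and the transfection reagent. Set 1 held 8 libraries, a pair for siNT, for each ribosomal knockdown and for their combination siRpl14+siRpl11. Set 2, in the same table, held 4 single libraries: siNT, siRpl14, siRpl14+siDux and siDux. Set 3, in the other table, held 10 libraries, a pair for siNT, for siRpl14, for siDux and for siRpl14+siDux, and a single one for siRpl11 and for siRpl14+siRpl11.

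Replication starts in 2 steps that are kept apart in time. In G1 the origin recognition complex, Cdc6 and Cdt1 load the Mcm2 to Mcm7 ring onto DNA, and in S phase kinases, Cdc45 and the GINS complex turn that ring into the working helicase that the polymerases follow. E2F factors, held back by the retinoblastoma family until cyclin-dependent kinases release them, drive the transcription of many of these genes. Mouse embryonic stem cells are known for a short G1, a large share of cells in S phase, and steady E2F activity.

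Values are FPKM, fragments scaled by transcript length and library size, and read depth is unknown because no counts were used. Genes listed at 0 made up 30.1 to 32.1% of all genes in the libraries of sets 1 and 2 and 50.5 to 56.2% in those of set 3, so low values are coarser in set 3. Whether the tables share a normalization is not known, so every test stayed within a table, and a level in set 3 is not comparable with one in sets 1 and 2. The targets fell unevenly: Rpl14 stood at 60.2 and 27.1% of siNT in the siRpl14 libraries of set 1, at 34.6% in set 2 and at 26.8 and 24.6% in set 3, and Rpl11 at 34.9 and 15.2% in the siRpl11 libraries of set 1. In replicates 1 and 2 of siRpl14+siRpl11 of set 1, Rpl14 stood at 15.6 and 35.3% and Rpl11 at 13.2 and 33.4%. In set 2 the level of Dux was 0.306 FPKM with siNT and 0.0546 FPKM with siDux, and it was listed at 0 in both siNT libraries of set 3, where its siRNA could not be checked. As a check of the labelled cell line, 8 embryonic stem cell markers summed to 8689 and 7774 FPKM in siNT of set 1, 5748 and 5205 FPKM with siRpl14, 6537 and 6779 FPKM with siRpl11, and 5668 and 5828 FPKM with siRpl14+siRpl11; 3 of the 8 fell and 1 rose with siRpl14, 4 fell and 1 rose with siRpl11, and 6 fell and 1 rose with both (31.5, 44.3 and 41.6% of all genes called). Of 8 fibroblast markers, only Fn1 and Thy1 passed the filter on low values, and Dcn and Postn were listed at 0 in every library of sets 1 and 2. The 5 primitive endoderm markers summed to 1.91 to 6.38 FPKM in sets 1 and 2. The 5 trophectoderm markers summed to 14.8 and 12.8 FPKM in siNT of set 1, 16.6 and 30 FPKM with siRpl14, 5.94 and 7.21 FPKM with siRpl11 and 7.58 and 6.98 FPKM with both; in set 2 they went from 9.27 FPKM in siNT to 39.6 FPKM with siRpl14 and 77.2 FPKM with siRpl14+siDux. The part of these markers in the results on replication genes was not tested.

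Promoter sequences are shown for the members whose levels the results turn on, to let the letters near an annotated start site be read beside their values. They are RefSeq windows of 300 bases on the build GRCm38.p6, from 250 bases before to 50 bases after the start of transcription, and 36 of the 44 members had an entry. Capitals mark matches to 4 E2F words (TTTCCCGC, TTTGGCGC, TTTCGCGC and TTTGCCGC, either strand).
E2f2, chr4:136172024-136172323, plus strand: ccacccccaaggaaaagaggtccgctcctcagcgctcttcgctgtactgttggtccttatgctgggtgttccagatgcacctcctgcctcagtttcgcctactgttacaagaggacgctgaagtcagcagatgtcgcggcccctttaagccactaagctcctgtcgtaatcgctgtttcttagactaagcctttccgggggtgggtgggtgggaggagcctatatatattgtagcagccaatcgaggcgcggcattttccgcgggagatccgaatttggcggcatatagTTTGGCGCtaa
E2f1, chr2:154569377-154569676, minus strand: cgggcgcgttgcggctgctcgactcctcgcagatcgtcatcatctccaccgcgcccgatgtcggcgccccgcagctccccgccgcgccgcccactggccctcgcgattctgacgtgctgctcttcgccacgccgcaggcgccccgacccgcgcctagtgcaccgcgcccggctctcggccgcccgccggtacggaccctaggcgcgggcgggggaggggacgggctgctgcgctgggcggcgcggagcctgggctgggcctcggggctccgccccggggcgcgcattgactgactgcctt
Cdt1, chr8:122567765-122568064, plus strand: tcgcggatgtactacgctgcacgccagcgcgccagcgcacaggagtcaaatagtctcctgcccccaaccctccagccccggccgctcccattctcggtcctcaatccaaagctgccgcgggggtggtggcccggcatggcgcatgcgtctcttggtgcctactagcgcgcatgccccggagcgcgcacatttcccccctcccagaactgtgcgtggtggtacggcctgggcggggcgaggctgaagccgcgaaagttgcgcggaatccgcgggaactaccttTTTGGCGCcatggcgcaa
Mcm6, chr1:128359656-128359955, minus strand: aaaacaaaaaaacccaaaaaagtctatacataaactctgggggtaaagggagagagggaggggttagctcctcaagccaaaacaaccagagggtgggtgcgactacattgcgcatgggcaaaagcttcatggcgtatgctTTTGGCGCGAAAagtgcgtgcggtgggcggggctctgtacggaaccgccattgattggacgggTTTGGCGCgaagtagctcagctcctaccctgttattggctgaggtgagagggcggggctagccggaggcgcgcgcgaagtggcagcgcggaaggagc
Orc2, chr1:58505060-58505359, minus strand: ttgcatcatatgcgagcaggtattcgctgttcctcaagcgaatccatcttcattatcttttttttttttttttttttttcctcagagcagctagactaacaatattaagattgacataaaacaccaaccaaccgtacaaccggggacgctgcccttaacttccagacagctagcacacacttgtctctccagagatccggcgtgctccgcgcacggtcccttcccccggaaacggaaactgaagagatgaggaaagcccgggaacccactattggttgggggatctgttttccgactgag

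Of the members called with siRpl14 in set 1, E2f2 and E2f1 fell most and Orc2 rose most, and Cdt1 rose most among the 2 called when siRpl11 was added to siRpl14; Mcm6 was added after its values were seen. The E2f2 window has 1 E2F word whose first letter is base 40, counting the start of transcription as 1, the Cdt1 window has 1 at base 33, and the Mcm6 window has 3, of which the first pair overlap. The E2f1 and Orc2 windows shown have none, and E2f2 and Orc2 each have a second window, not shown, also with none. E2f1 has 1 window, set by 1 annotated start, and whether that start is the main one was not checked. The lack of a word there therefore does not describe the E2f1 promoter as a whole. In the shares that follow, E2f1 is still counted among the members without a word. At least 1 of the 4 words lay in a window of 15 of 36 members, or 41.7%, against 2.6% of the 27025 genes of the promoter table. Split by the siRpl14 result in set 1, the words were present in 8 of 11 members that fell, 1 of 3 that rose (Hells) and 6 of 22 that did not pass. On either strand, CCAAT was present in 66.7% of members with an entry and 41.1% of all genes, CACGTG in 16.7 and 8.09%, and TTTGAA in 13.9 and 20.2%. A match describes the letters of a window and is not a binding site.

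Knockdown of Rpl14 was accompanied by lower transcript levels of many, but not all, of the chosen members that license and fire origins. In set 1, 14 of the 44 members fell and 3 rose, and 27 did not pass the test (limma on log2(FPKM + 1), Benjamini-Hochberg adjusted p under 0.05 over 12129 genes). Over all tested genes 31.5% were called, 13.4% lower and 18.1% higher. The median change of the members was -0.29 on the log2 scale, against 0.03 for all genes, and 34 of 44 were below 0, against 47.1% of all genes. The falls called in set 1 alone lay in the first stages of replication: 2 of 4 in the E2F and cyclin E group, 8 of 12 in origin licensing and 3 of 6 in helicase activation, plus Uhrf1. No member of the polymerase, clamp, single-strand binding, Okazaki or nucleotide groups passed in either direction in set 1 alone. Some of them passed as lower when set 2 was added to the fit (below), so a limit to the first stages is not shown. In bulk RNA, fewer cells in S phase and less RNA per cell cannot be told apart.

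**Figure D1:**
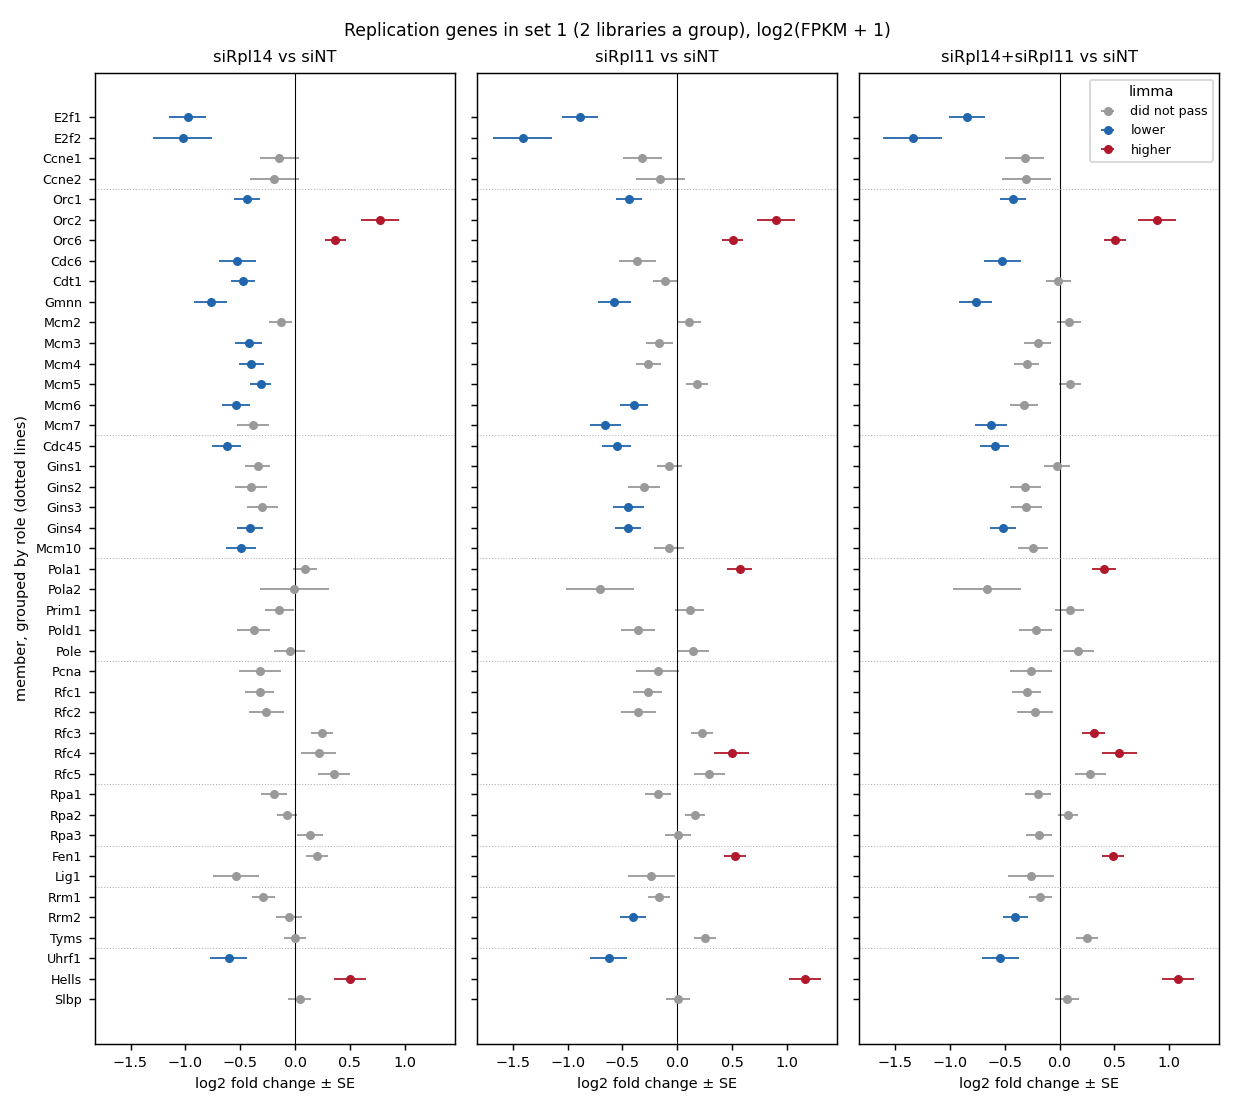
Log2 fold change against siNT for each of the 44 members in set 1, by knockdown (3 panels, 2 libraries a group). Points are limma estimates on log2(FPKM + 1), bars are ± 1 SE, and colour gives the call: blue lower, red higher, grey did not pass. E2f1 and E2f2 sit farthest left in the siRpl14 panel, and Orc2 and Hells farthest right.

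E2f1, an activator that turns on S phase genes, was at 32.2 and 31 FPKM in the 2 siNT libraries of set 1, 18.1 and 13.4 FPKM with siRpl14, 17.9 and 15.4 FPKM with siRpl11 and 15.3 and 19.2 FPKM with both siRNAs. All 6 knockdown libraries lay below both siNT libraries. It fell by 0.98 ± 0.17 (log2, SE) with siRpl14 (limma adjusted p = 0.00678), a call lost only without siNT replicate 1 (adjusted p = 0.0582). E2f2, a second activator, was at 8.98 and 10.3 FPKM in siNT, 5.62 and 3.14 FPKM with siRpl14, 3.77 and 2.36 FPKM with siRpl11 and 2.62 and 3.9 FPKM with both. Its knockdown libraries were again all below siNT. The change was -1.02 ± 0.27 with siRpl14 (adjusted p = 0.0252) and -1.41 ± 0.27 with siRpl11 (adjusted p = 0.00643). The cyclin E genes, whose products partner Cdk2 at the G1/S transition, did not pass: Ccne1 gave -0.14 ± 0.18 and Ccne2 -0.19 ± 0.22 with siRpl14.

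Among the origin recognition genes the subunits moved apart. Orc1, the ATPase subunit that rises and falls with the cell cycle, was at 54.6 and 53.3 FPKM in siNT, 40.7 and 38.4 FPKM with siRpl14, 43 and 36.1 FPKM with siRpl11 and 37.3 and 42.6 FPKM with both. It fell by 0.44 ± 0.12 with siRpl14 (limma adjusted p = 0.0273). Orc2, a core subunit of the same complex, was at 18.4 and 22.3 FPKM in siNT and rose to 31.7 and 39.3 FPKM with siRpl14, 33.8 and 44.4 FPKM with siRpl11 and 41.5 and 35.6 FPKM with both. Its groups did not overlap siNT, and the change with siRpl14 was 0.77 ± 0.17 (adjusted p = 0.0155). Orc6, the subunit least like the others, was at 50.8 and 56.2 FPKM in siNT, 67 and 71.4 FPKM with siRpl14, 73.9 and 78.5 FPKM with siRpl11 and 77.1 and 75.6 FPKM with both. Its change with siRpl14 was 0.37 ± 0.10 (adjusted p = 0.0262), and every knockdown library was above siNT.

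The loading factors fell with siRpl14. Gmnn, encoding geminin, which blocks Cdt1 outside G1, was at 130.2 and 122 FPKM in siNT, 85.5 and 63.2 FPKM with siRpl14, 89.6 and 79 FPKM with siRpl11 and 69.6 and 78.2 FPKM with both. It was the member of the licensing group that fell most with siRpl14, by 0.77 ± 0.15 (limma adjusted p = 0.0104). Cdt1, which brings the Mcm ring to the origin, was at 78 and 82.1 FPKM in siNT, 62.6 and 52.5 FPKM with siRpl14, 71.1 and 77.2 FPKM with siRpl11 and 79.9 and 79.1 FPKM with both. The siRpl14 libraries were the lowest, and the siRpl11 libraries lay just under siNT: the change was -0.47 ± 0.11 with siRpl14 (adjusted p = 0.0172), against -0.11 ± 0.11 with siRpl11 (adjusted p = 0.439) and -0.01 ± 0.11 with both (adjusted p = 0.947). Cdc6, the ATPase that works with Cdt1, was at 22.5 and 24 FPKM in siNT, 19.2 and 13.1 FPKM with siRpl14, 18.9 and 16.9 FPKM with siRpl11 and 15 and 16.9 FPKM with both. Its fall of 0.53 ± 0.17 with siRpl14 stood close to the threshold (adjusted p = 0.0494), and leaving out any 1 library other than siRpl14 replicate 1 ended the call (adjusted p up to 0.257), as did 4 of 7 other settings.

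Of the 6 subunits of the Mcm helicase ring, 4 fell with siRpl14 and 2 did not pass. Mcm6 was at 155 and 158 FPKM in siNT, 123 and 94.1 FPKM with siRpl14, 122 and 115 FPKM with siRpl11 and 124 and 126 FPKM with both. It fell by 0.54 ± 0.13 with siRpl14 (limma adjusted p = 0.0184), and no knockdown library reached the siNT range. Mcm3 was at 202 and 232 FPKM in siNT, 176 and 147 FPKM with siRpl14, 200.4 and 186 FPKM with siRpl11 and 184 and 194 FPKM with both, a change of -0.42 ± 0.12 with siRpl14. Mcm4 was at 104 and 109 FPKM in siNT, 88.1 and 73.7 FPKM with siRpl14, 92.6 and 84.7 FPKM with siRpl11 and 83.5 and 89.4 FPKM with both, a change of -0.40 ± 0.11 with siRpl14. Mcm4 and Mcm3 passed with adjusted p = 0.0329 and 0.0322. Mcm5 moved in different directions: it was at 265 and 257 FPKM in siNT, 224 and 197 FPKM with siRpl14, 304 and 289 FPKM with siRpl11 and 280.2 and 278 FPKM with both. Its siRpl14 libraries were the lowest of the set and its siRpl11 libraries the highest, with a change of -0.31 ± 0.10 with siRpl14 (adjusted p = 0.0433) and 0.18 ± 0.10 with siRpl11 (adjusted p = 0.164). Leaving out any 1 library other than siRpl14 replicate 1 ended the siRpl14 call of Mcm5 (adjusted p up to 0.224). Mcm2 (-0.13 ± 0.11) and Mcm7 (-0.38 ± 0.14, adjusted p = 0.0764) did not pass with siRpl14. In levels per length, Mcm5 was the highest and Mcm4 the lowest of the 6 subunits in all 12 libraries of sets 1 and 2; in set 3 Mcm7 was the highest in 9 of 10 libraries.

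Helicase activation genes followed the same direction, all 6 being below 0 with siRpl14. Cdc45, the helicase subunit that joins the ring with GINS, was at 41.6 and 40.3 FPKM in siNT, 29.4 and 23.4 FPKM with siRpl14, 28.5 and 26.7 FPKM with siRpl11 and 24.8 and 28.9 FPKM with both. All 6 knockdown libraries were below siNT, and the fall with siRpl14 was 0.62 ± 0.13 (limma adjusted p = 0.0132). Mcm10, which helps the helicase start, was at 60.8 and 63.9 FPKM in siNT, 50.9 and 38 FPKM with siRpl14, 59.9 and 58.2 FPKM with siRpl11 and 51.7 and 53.4 FPKM with both. The siRpl14 change was -0.49 ± 0.14 (adjusted p = 0.0294), against -0.08 ± 0.14 with siRpl11. Gins4, a GINS subunit, was at 58.8 and 56.8 FPKM in siNT, 47.1 and 39.5 FPKM with siRpl14, 45.1 and 39.4 FPKM with siRpl11 and 39.1 and 41.4 FPKM with both, and fell by 0.41 ± 0.12 with siRpl14 (adjusted p = 0.0337). Gins1, Gins2 and Gins3 gave -0.34, -0.40 and -0.30 with siRpl14 and did not pass (adjusted p = 0.0573, 0.0666 and 0.137).

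The chromatin members split. Uhrf1, which binds hemimethylated DNA and brings the maintenance methyltransferase to new strands, was at 143 and 145 FPKM in siNT, 109.7 and 80.9 FPKM with siRpl14, 102 and 84.3 FPKM with siRpl11 and 89.4 and 109 FPKM with both, and fell by 0.60 ± 0.17 with siRpl14 (limma adjusted p = 0.0304). Hells, a chromatin remodeller needed for DNA methylation, was at 31.5 and 41.1 FPKM in siNT, 48 and 55.2 FPKM with siRpl14, 76.1 and 88 FPKM with siRpl11 and 78.9 and 76 FPKM with both. Its libraries stepped up without overlap from siNT to siRpl14 and from there to the siRpl11-containing groups. The rise was 0.50 ± 0.15 with siRpl14 (adjusted p = 0.0347) and 1.16 ± 0.15 with siRpl11 (adjusted p = 0.00249). Slbp, which binds the stem-loop of histone mRNAs, gave 0.04 ± 0.11 with siRpl14.

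In set 1, the polymerase, clamp, single-strand binding and Okazaki genes spread on either side of 0 with siRpl14. The nucleotide genes were all below 0. Of the Okazaki genes, Fen1 gave 0.20. In the polymerase group changes ran from -0.38 (Pold1, catalytic subunit of polymerase delta) to 0.09 (Pola1, catalytic subunit of polymerase alpha), and in the clamp group from -0.32 (Rfc1 and Pcna, the clamp itself) to 0.35 (Rfc5). Single-strand binding genes ran from -0.19 (Rpa1) to 0.13 (Rpa3), and nucleotide genes from -0.29 (Rrm1, the large subunit of ribonucleotide reductase) to -0.0042 (Tyms, thymidylate synthase). Lig1, the ligase that seals Okazaki fragments, gave -0.54 ± 0.21, a larger change than that of several called members, and did not pass (limma adjusted p = 0.0848), its siRpl14 libraries being at 112 and 74.6 FPKM against 139 and 127 FPKM in siNT.

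The size of the siRpl14 result depended on single libraries. Counting overlaps alone, 26 members had both siRpl14 libraries below both siNT libraries in set 1 (32.9% of all genes) and 7 had both above (38.2%). The median member stood at 88.4% of siNT in replicate 1 of siRpl14, where Rpl14 was at 60.2%, and at 73.9% in replicate 2, where Rpl14 was at 27.1%. The number of members called was 17 with all 8 libraries. It went to 0 when siNT replicate 1 was left out, to 5 when siNT replicate 2 was, to 1 (E2f1) when siRpl14 replicate 2 was, to 25 when siRpl14 replicate 1 was, and to 15 for each of the other 4. The share of all genes called moved with it for the first 3, from 31.5% to 6.32, 11.9 and 6.62%, and was 32.2% without siRpl14 replicate 1.

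**Figure D2:**
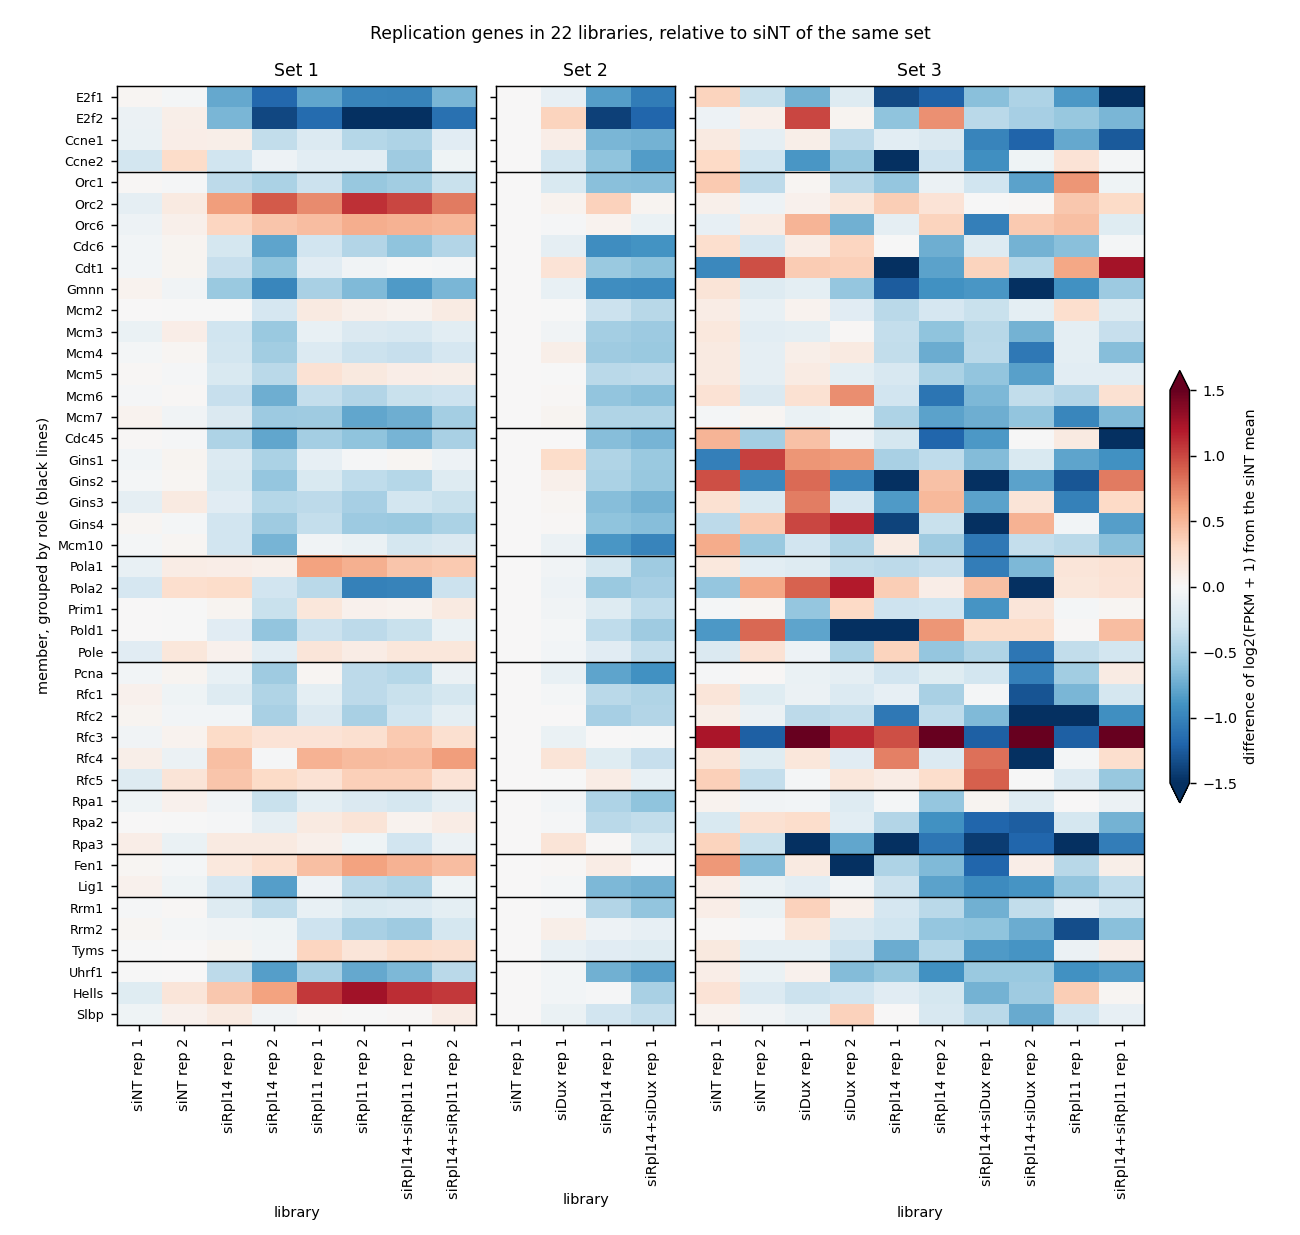
Difference of log2(FPKM + 1) from the siNT mean of the same set, for the 44 members (rows, grouped by role) in 22 libraries (columns), blue lower and red higher. The blue band of E2F, licensing and helicase genes is seen in the siRpl14 libraries of sets 1 and 2, Orc2, Orc6 and Hells are red in the knockdown libraries of set 1, and single genes such as Rfc3 scatter widely among the libraries of set 3.

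The siRpl14 library of set 2 showed the falls again but not all the rises. With 1 library a group there is no replicate check. In set 2, 38 of 44 members were lower with siRpl14 than in siNT, with a median of -0.46 against 0.01 for all genes; 15 members were lower by over 1.5-fold on the log2(FPKM + 1) scale (13.2% of all genes) and none was higher by that much (14.9% of all genes). The 14 members that fell in set 1 were all lower in set 2, 10 of them by over 1.5-fold. Of the 27 that did not pass in set 1, 23 were lower in set 2 as well, 5 of them by over 1.5-fold. Over all genes of set 2, 49.1% were below 0. The set 2 values for siNT and siRpl14 were 24.4 and 13.4 FPKM for E2f1, 10.7 and 3.41 FPKM for E2f2, 114 and 59.4 FPKM for Gmnn, and 145 and 95.9 FPKM for Mcm6. Pcna, the sliding clamp, went from 343 to 197 FPKM there, a change of -0.80, where set 1 gave -0.32 ± 0.19. Of the 3 members that rose in set 1, Orc2 gave 0.34, Orc6 0.05 and Hells -0.01 in set 2. The siNT levels of these genes were higher in set 2 than in set 1 of the same table, at 30.5 FPKM for Orc2, 68.4 FPKM for Orc6 and 54.1 FPKM for Hells. For Orc6 and Hells this was close to the siRpl14 levels in either set. For Orc2 it was under them, at 31.7 and 39.3 FPKM with siRpl14 in set 1 and 38.9 FPKM in set 2. When set 2 was added to the fit with the set as a term, 24 members were lower and 2 higher, and Hells was lost (limma adjusted p = 0.0741). Of all genes, 47.7% were called in that fit, 21.8% lower. The 24 included Pold1, Pcna, Rfc1, Rpa1, Lig1 and Rrm1, from the groups in which no member passed in set 1 alone (limma adjusted p from 0.00991 to 0.0474).

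**Figure D3:**
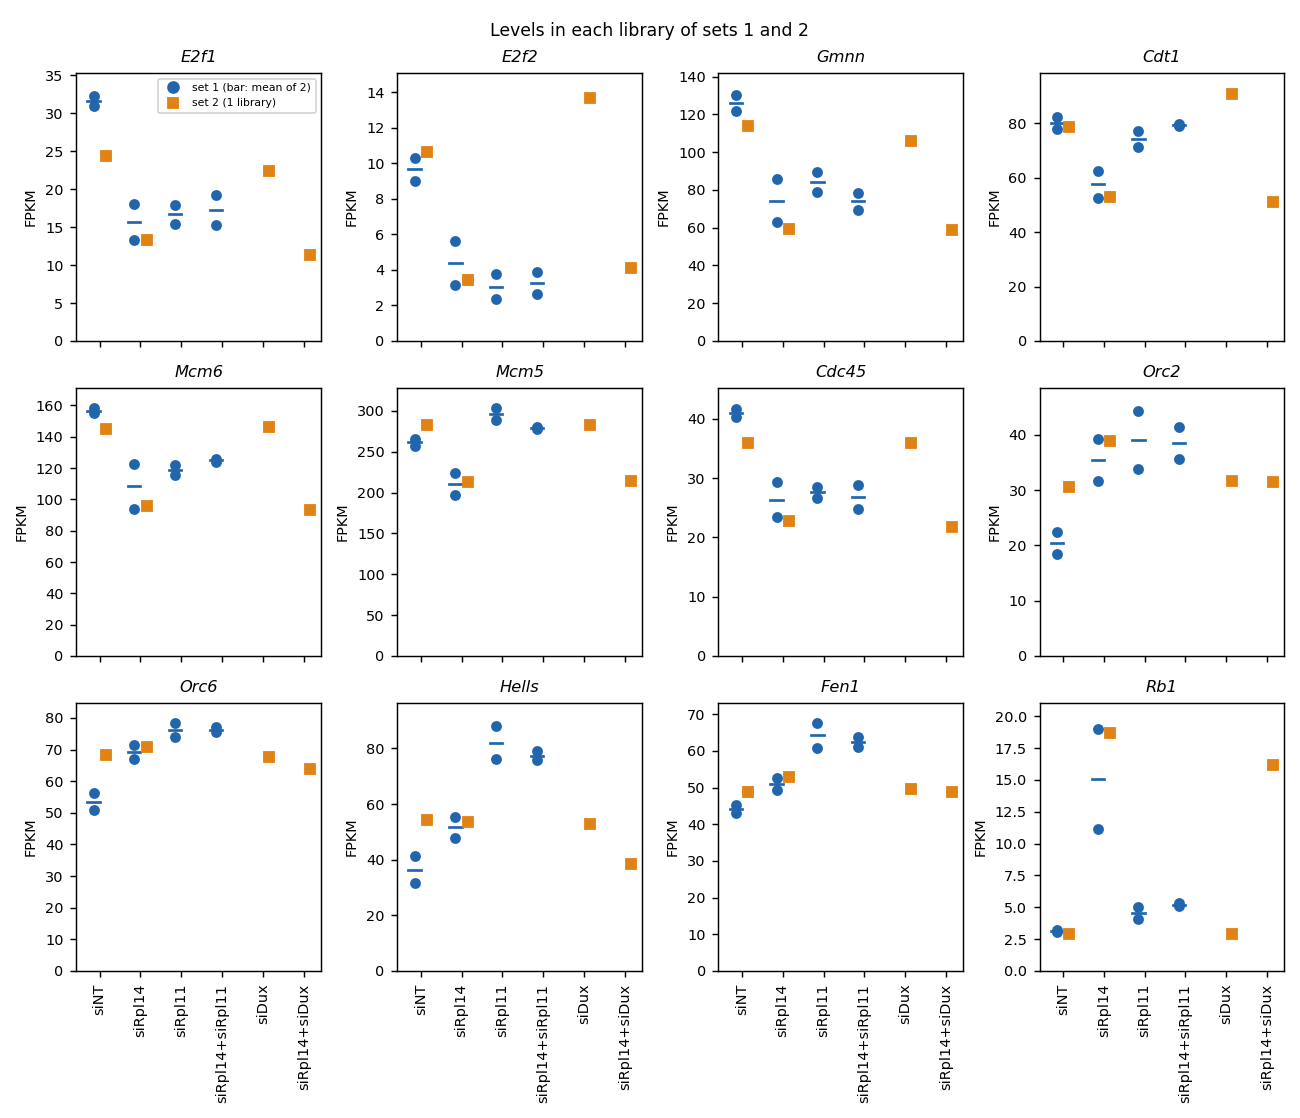
FPKM of 11 members and of Rb1 in each library of sets 1 (blue, bar at the mean of 2) and 2 (orange, 1 library), by transfection. E2f1, E2f2, Gmnn and Cdc45 are low wherever Rpl14 or Rpl11 was targeted, Cdt1 and Mcm5 are lowest with siRpl14 and siRpl14+siDux, and Rb1 is high in those same groups.

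Set 3 showed the same direction for most members, with none past the test. With siRpl14, 37 of 44 members were below 0 and the median was -0.37, against -0.05 for all 13189 genes tested; limma called 0 of 44 members, against 0.66% of all genes, and 5 members had an unadjusted p under 0.05 (12.4% of all genes). The smallest adjusted p was 0.215, for Gmnn, at 103 and 79.1 FPKM in siNT and 37.4 and 47.9 FPKM with siRpl14, a change of -1.08 ± 0.30. E2f1 was at 17.2 and 10.4 FPKM in siNT and 4.65 and 5.22 FPKM with siRpl14, a change of -1.28 ± 0.41 (adjusted p = 0.26). The siRpl14 libraries of both genes lay below siNT. Cdt1 shows how coarse low values are in this table: it was at 1.83 and 9.87 FPKM in siNT, and was listed at 0 and at 2.19 FPKM with siRpl14. Replicates lay further apart in set 3 than in set 1. Over the members the 2 siNT libraries differed by a median of 0.37 (log2) in set 3 and 0.09 in set 1. The 2 siRpl14 libraries differed by 0.36 and 0.27. Over all genes these medians were 0.51 and 0.14 for siNT, and 0.48 and 0.19 for siRpl14. The 0 calls of set 3 do not show that the members were unchanged. Of the 14 members that fell in set 1, 13 were below 0 in set 3, E2f2 (0.04) being the exception. So were 23 of the 27 members that did not pass in set 1, and 52.3% of all genes. Orc2 was above siNT in both siRpl14 libraries, at 72 and 64 FPKM against 58.4 and 52.4 FPKM.

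Across the 3 sets, 14 members had every siRpl14 library below every siNT library of its own set: E2f1, Gmnn, all 6 subunits of the Mcm2 to Mcm7 ring, Pcna, Rpa2, Lig1, Rrm1, Rrm2 and Uhrf1. The same held for 11.4% of the 11144 genes tested in all sets. Orc2 was the only member above siNT in this way (11.9% of genes). The siNT libraries differ between the sets, so these comparisons share no control.

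Knockdown of Rpl11 also lowered E2f1 and E2f2. In set 1, 11 members fell and 6 rose, shares near those of all genes (28.4% called lower and 16% higher, 44.3% in all), with a median of -0.17 against -0.11 for all genes. Falls were called for E2f1 (-0.89 ± 0.17, limma adjusted p = 0.0063), E2f2, Orc1, Gmnn, Mcm6, Mcm7, Cdc45, Gins3, Gins4, Rrm2 and Uhrf1. Rises were called for Orc2, Orc6, Pola1, Rfc4, Fen1 and Hells. The comparisons with siRpl14 and siRpl11 share the siNT libraries, so their likeness is not independent. The split depended on scaling: rescaling the libraries by their median ratio moved the median of all genes from -0.11 to 0.03 and gave 4 lower (E2f1, E2f2, Mcm7 and Cdc45) and 11 higher members. Quantile normalization, which also centred all genes (median 0.01), gave 10 lower and 5 higher. Without siNT replicate 1, siNT replicate 2 or siRpl11 replicate 2, the count of 17 went to 6, 9 and 5, while the share of all genes called went from 44.3% to 17.5, 24.9 and 14.7%. E2f1, E2f2, Pola1 and Hells kept their call without any 1 library.

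There were 6 members that passed with siRpl11 and not with siRpl14, from 6 of the role groups; passing in one and not the other does not show a difference. Mcm7, of the helicase ring, was at 252 and 235 FPKM in siNT, 209 and 167 FPKM with siRpl14, 168 and 142 FPKM with siRpl11 and 146 and 171 FPKM with both, and fell by 0.66 ± 0.14 with siRpl11 (limma adjusted p = 0.00989). Gins3 was at 12.6 and 15.4 FPKM in siNT, 12.3 and 10.1 FPKM with siRpl14, 10.4 and 9.54 FPKM with siRpl11 and 11.3 and 10.9 FPKM with both, a change of -0.45 ± 0.14 with siRpl11 (adjusted p = 0.0357). Rrm2, the regulated small subunit of ribonucleotide reductase, was at 180.0 and 174 FPKM in siNT, 171 and 169 FPKM with siRpl14, 142 and 126 FPKM with siRpl11 and 122 and 147 FPKM with both. Its siRpl14 libraries lay just under siNT, while the 4 libraries with siRpl11 lay well below, by 0.40 ± 0.12 with siRpl11 alone (adjusted p = 0.0258). Pola1 was at 17.7 and 20.9 FPKM in siNT, 20.6 and 20.3 FPKM with siRpl14, 29.6 and 28.3 FPKM with siRpl11 and 26 and 25.6 FPKM with both, a rise of 0.57 ± 0.11 with siRpl11 (adjusted p = 0.00667). Fen1, the flap nuclease that trims Okazaki fragments, was at 45.2 and 43.1 FPKM in siNT, 49.3 and 52.7 FPKM with siRpl14, 60.8 and 67.7 FPKM with siRpl11 and 63.8 and 61 FPKM with both. It rose by 0.53 ± 0.10 with siRpl11 (adjusted p = 0.0062), with no overlap between the siRpl14 and siRpl11 libraries. Rfc4, a clamp loader subunit, was at 32.3 and 28.7 FPKM in siNT, 41.9 and 30 FPKM with siRpl14, 44 and 42.7 FPKM with siRpl11 and 42.2 and 47.7 FPKM with both, a change of 0.50 ± 0.16 with siRpl11 (adjusted p = 0.0366).

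Tested directly, the difference between the single knockdowns passed for 3 members, all lower with siRpl14 than with siRpl11 (1.45% of all genes called lower and 12% higher). These were Hells (-0.66 ± 0.15, limma adjusted p = 0.0251), Mcm5 (-0.50 ± 0.10, adjusted p = 0.0164) and Pola1 (-0.48 ± 0.11, adjusted p = 0.0273). Fen1 (-0.33 ± 0.10, adjusted p = 0.0678), Cdt1 (-0.36 ± 0.11, adjusted p = 0.0672) and Rrm2 (0.34 ± 0.12, adjusted p = 0.0913) did not pass, so a difference between the knockdowns is not shown for them. Hells and Pola1 lost this call without siRpl14 replicate 1 or 2 or siRpl11 replicate 2, Mcm5 without siRpl14 replicate 2 or either siRpl11 library, and Pola1 also without siRpl11 replicate 1 (adjusted p up to 0.153). With median-ratio rescaling 11 members passed, all lower with siRpl14, Cdt1 and Fen1 among them (12.7% of all genes); with quantile normalization 3 did (8.19%).

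**Figure D4:**
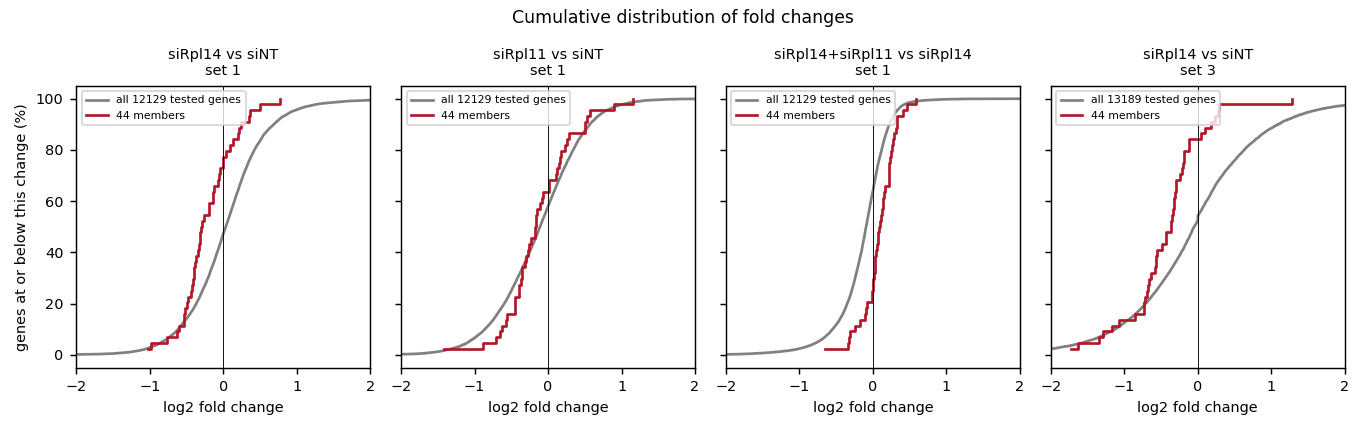
Cumulative share of genes (y axis, %) at or below a log2 fold change (x axis) for all tested genes (grey) and the 44 members (red), in 4 comparisons. The red curve lies left of the grey one for siRpl14 in sets 1 and 3 (medians -0.29 and -0.37), close to it for siRpl11 (-0.17 against -0.11), and right of it when siRpl11 is added to siRpl14 (0.09 against -0.09).

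The pair siRpl14+siRpl11 gave values close to those of siRpl11 alone. Against siNT, 10 members fell and 7 rose (25 and 16.6% of all genes, 41.6% in all), with a median of -0.22 against -0.07 for all genes; the split was 6 and 8 with median-ratio rescaling and 9 and 6 with quantile normalization. The falls were E2f1, E2f2, Orc1, Cdc6, Gmnn, Mcm7, Cdc45, Gins4, Rrm2 and Uhrf1, and the rises Orc2, Orc6, Pola1, Rfc3, Rfc4, Fen1 and Hells, Hells with 1.08 ± 0.15 (limma adjusted p = 0.00327). Rfc3, another clamp loader subunit, was at 29.6 and 32 FPKM in siNT and 40.6 and 36.4 FPKM with both siRNAs. The count of 17 dropped to 2 when siNT replicate 1 was left out, 7 when siNT replicate 2 was, and 1 (Hells) when siRpl14+siRpl11 replicate 1 was, where 12.9, 20 and 10.8% of all genes were called. Against siRpl11 alone, limma called 0 members and 0 of all 12129 genes (0% of all genes); 0 members and 387 of all genes had an unadjusted p under 0.05. Changes of the members in that comparison ran from -0.19 to 0.14.

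Adding siRpl11 to siRpl14 raised 2 members and lowered none (0.627% of all genes called higher and 6.61% lower, 7.24% in all). Cdt1 rose by 0.46 ± 0.11 (limma adjusted p = 0.046), from 62.6 and 52.5 to 79.9 and 79.1 FPKM, and Mcm5 by 0.41 ± 0.10 (adjusted p = 0.0471), from 224 and 197 to 280.2 and 278 FPKM. Both pairs of libraries were clear of each other and, for Cdt1, back within the siNT range of 78 to 82.1 FPKM. Leaving out any 1 library other than siRpl14 replicate 1 ended both calls (adjusted p up to 0.258), as did 4 of the 7 other settings. Over all 7 the adjusted p ran from 0.0181 to 0.0815 for Cdt1 and from 0.0194 to 0.0684 for Mcm5. Hells stood next (0.58 ± 0.15, adjusted p = 0.0536). Of the 44 members, 33 were above 0, with a median of 0.09 against -0.09 for all genes, where 64.1% were below 0. E2f1 (0.13 ± 0.17), Gmnn (0.0048 ± 0.15) and Cdc45 (0.03 ± 0.13) changed little in that comparison and did not pass.

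The interaction of the 2 siRNAs, that is the change with both beyond the sum of their single changes, was called for 0 of 44 members by limma (4.49% of all genes), while 13 members had an unadjusted p under 0.05 (29.1% of all genes). E2f1 came closest, at 1.02 ± 0.24 (adjusted p = 0.0519): its single falls of 0.98 and 0.89 compare with a fall of 0.84 for the pair. With set 2 in the fit 6 members passed, all positive (E2f1, E2f2, Cdt1, Mcm6, Cdc45 and Uhrf1), a share near the 14.6% of all genes called in that fit. Without siRpl14 replicate 1 there were 8 members, and 10% of all genes.

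With siDux alone the members stayed near their siNT levels in set 2. The siDux library differed from siNT by -0.28 (Ccne2) to 0.33 (E2f2), with no member past 1.5-fold (0.544% of all genes lower and 0.444% higher by that much), for example 22.4 against 24.4 FPKM for E2f1 and 146 against 145 FPKM for Mcm6. In set 3 limma called 0 members (0.00758% of all genes), 1 member (Rpa3) had an unadjusted p under 0.05 (5% of all genes), and the median change was -0.07.

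With siRpl14+siDux the members were low, as with siRpl14 alone. In set 2, 18 members were lower than siNT by over 1.5-fold (13.1% of all genes) and none higher (16.1%), and against the siRpl14 library no member was past 1.5-fold (0.954% of genes lower, 1.31% higher), although 38 of 44 were slightly lower, with a median of -0.07. The values for siRpl14 and siRpl14+siDux were 13.4 and 11.3 FPKM for E2f1, 59.4 and 58.6 FPKM for Gmnn, 52.9 and 51.2 FPKM for Cdt1, and 213 and 215 FPKM for Mcm5. Hells stood furthest apart, at 53.6 and 38.3 FPKM. In set 3 the pair was compared with siNT and limma called 0 members (1.02% of all genes, 0.311% lower), with 16 at an unadjusted p under 0.05, all lower (14.8% of all genes in either direction), and a median of -0.57 against -0.07 for all genes. Rpa2, a subunit of the single-strand binding complex, had the smallest adjusted p (limma, 0.121): it was at 33.1 and 45.8 FPKM in siNT, 28.5 and 20.3 FPKM with siRpl14 and 16.6 and 16 FPKM with the pair. Between the pair and siRpl14 in set 3, limma called 0 members (0.0152% of all genes) with 1 (Ccne1) at an unadjusted p under 0.05, and the median was -0.23. The interaction of siRpl14 and siDux was called for 0 members (0.0152% of all genes), with 1 (Rpa3) at an unadjusted p under 0.05.

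**Figure D5:**
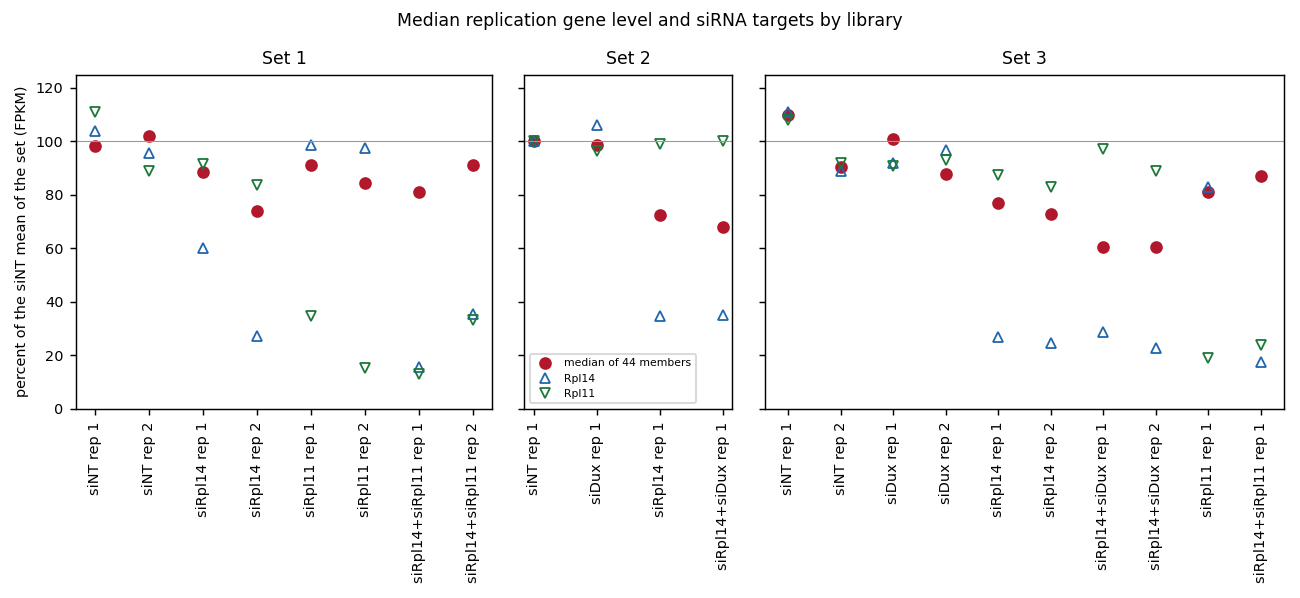
Median level of the 44 members (red), Rpl14 (blue) and Rpl11 (green) in each library, as percent of the siNT mean of its set. The median of the members was 88.4 and 73.9% in the siRpl14 libraries of set 1, 72.4% in set 2 and 76.8 and 72.9% in set 3, and was lowest, at 60.7% in both libraries, with siRpl14+siDux in set 3.

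The 2 single libraries of set 3 with siRpl11 were only described. Against the siNT mean, 15 members were lower by over 1.5-fold and 1 higher with siRpl11 (32.7 and 17.6% of all genes), and 14 lower and 3 higher with siRpl14+siRpl11 (32.5 and 18.3%). Against the mean of siRpl14, the siRpl14+siRpl11 library had 5 members lower and 9 higher by that much (29 and 16.7% of all genes). E2f1 was at 6.93 and 2.86 FPKM in these libraries, against 17.2 and 10.4 FPKM in siNT. Cdt1 was at 7.26 and 12.2 FPKM, inside and above its wide siNT range, and Hells at 161 and 127 FPKM, against 144 and 108 FPKM in siNT.

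Lists of genes next to the members in the same pathways were counted for siRpl14 in set 1, where 13.4% of all genes fell and 18.1% rose; no list was tested against another. Of 30 other fork and origin factors, 2 fell and 1 rose, both shares below those of all genes, and their median was -0.10. Cdc7, the kinase that fires loaded origins, fell by 0.72 ± 0.10 (limma adjusted p = 0.00394), and Orc5, another origin recognition subunit, rose by 0.64 ± 0.15 (adjusted p = 0.017). Cdc7 was at 23.4 and 25 FPKM in siNT, 14.8 and 13.8 FPKM with siRpl14, 15.9 and 17 FPKM with siRpl11 and 17.1 and 16.6 FPKM with both. Of 25 G1/S regulators 4 fell and 3 rose, a share called below that of all genes (31.5%), with a median of 0.01. The largest fall and rise among them were those of 2 members of the retinoblastoma family, the repressors of E2F. Rbl1 fell by 0.75 ± 0.16 (adjusted p = 0.0132), and Rb1 rose by 1.90 ± 0.22 (adjusted p = 0.00205).

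Rb1 was higher with siRpl14 than with siNT in each set, and stood far lower in the pair with siRpl11. It was at 3.24 and 3.1 FPKM in siNT of set 1, 11.1 and 19 FPKM with siRpl14, 4.12 and 4.99 FPKM with siRpl11 and 5.33 and 5.1 FPKM with both. In set 2 it was at 2.94 FPKM in siNT, 2.89 FPKM with siDux, 18.7 FPKM with siRpl14 and 16.2 FPKM with siRpl14+siDux, and in set 3 at 3.52 and 2.26 FPKM in siNT, 12.8 and 11.2 FPKM with siRpl14, 11.1 and 16.7 FPKM with siRpl14+siDux and 3.5 FPKM with siRpl14+siRpl11. The siRpl14 and siRpl14+siDux libraries were high in every set and did not overlap any other group. For siRpl14 against siNT in set 3, limma called 0 of 24 G1/S regulators tested, Rb1 among them (0.66% of all genes). Set 2 has 1 library a group, so the call of the rise rests on set 1. Between the pair with siRpl11 and siRpl14 alone the change of Rb1 was -1.33 ± 0.22 (limma adjusted p = 0.015), a call lost without siRpl14 replicate 2 or either library of the pair (adjusted p up to 0.0735). E2f1, in contrast, was low in all these groups of set 1.

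Of 13 further nucleotide and chromatin assembly genes 0 fell and 2 rose with siRpl14, led by Asf1a, a histone chaperone (0.71 ± 0.15, limma adjusted p = 0.0123). Of 8 checkpoint genes 1 fell, Atrip, the partner of the Atr kinase (-0.49 ± 0.12, adjusted p = 0.0231), and 0 rose. Of 20 mitosis genes 11 fell and 0 rose, with a median of -0.47: Kif23, a motor of cytokinesis, gave -0.96 ± 0.21 (adjusted p = 0.0143) and the proliferation marker Mki67 -0.59 ± 0.15 (adjusted p = 0.024). Lower levels of replication and mitosis genes thus stood side by side in the siRpl14 libraries. Cdkn1a, encoding the Cdk inhibitor p21, was at 77.2 and 63.5 FPKM in siNT and 61.6 and 117 FPKM with siRpl14 in set 1, where its groups overlapped (0.27 ± 0.28, adjusted p = 0.474). In set 2 it was at 45.3 FPKM in siNT, 50.04 FPKM with siDux, 124.5 FPKM with siRpl14 and 155.6 FPKM with siRpl14+siDux. Set 3 gave 17.1 and 24.6 FPKM in siNT and 55.9 and 47.8 FPKM with siRpl14, with no overlap, and the change did not pass (1.29 ± 0.44, adjusted p = 0.293).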

How the data were processed

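The authors deposited FPKM per gene for 22 libraries in 2 tables, and these were used unchanged. The submitters' processing notes name STAR, Cuffnorm and the build mm9; for versions, annotation, strand setting and normalization, the sources used here give nothing. Sets 1 and 2 were told apart by the style of their titles alone. The 44 members, the gene lists and the settings were chosen with earlier results of these data known.

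Sets 1 and 3 were each fitted with limma 3.58.1 (R 4.3.3, statmod 1.5.0; trended, robust moderation) on log2(FPKM + 1), after a filter of 1 FPKM or more in 2 or more libraries; all 44 members passed. P-values were adjusted by Benjamini-Hochberg over all genes of a fit at 0.05, with 7 contrasts in set 1 and 5 in set 3. The 2 single siRpl11 libraries of set 3 and all of set 2 were described only, on the same log2 scale. A fold on this scale understates changes of low genes. The labels do not say that replicates were separate cultures, and p-values therefore reflect the spread among these samples alone, possibly a technical one. Other settings were a pseudocount of 0.1, no filter, a mean of at least 5 FPKM, 2 other scalings, a replicate block, each library left out and set 2 added.

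Library values were given for members called in siRpl14 or siRpl11 against siNT, in siRpl14+siRpl11 against siRpl14, or in set 3. Outside the members, the siRNA targets, Cdkn1a, Mki67 and the called gene with the largest fall and rise of each list were named. Promoters are RefSeq windows on GRCm38.p6; no coordinate was moved between builds.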

Additional observations from a re-analysis of the deposited data

Results flagged for a closer look

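For 2 genes outside the members, the effect of siRpl14 differed with and without siRpl11 by the interaction test of set 1. Rb1 gave an interaction of -1.73 on the log2 scale (SE 0.31, limma adjusted p = 0.0316). It stood far above siNT in both siRpl14 libraries and less so with siRpl14+siRpl11, at 5.33 and 5.1 FPKM against 3.24 and 3.1 FPKM in siNT. Cdc7 gave 0.755 (SE 0.15, limma adjusted p = 0.0364): its falls of 0.72 with siRpl14 and 0.53 with siRpl11 compare with a fall of 0.50 for the pair. Both calls were lost without any 1 of 7 of the 8 libraries, siRpl14 replicate 1 being the exception (adjusted p up to 0.122 for Rb1 and 0.118 for Cdc7), and under 2 of the 7 other settings, no filter and the replicate block.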

How the results depend on the processing

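No member named with a call changed direction under any setting run. Adding set 2 gave 26 members called with siRpl14 against siNT, 6 between siRpl14 and siRpl11, and 6 for the interaction of siRpl14 and siRpl11, against 17, 3 and 0. For siRpl14+siRpl11 against siRpl14, where 2 were called, median-ratio rescaling gave 4, and no filter, a mean of at least 5 FPKM, quantile normalization and the replicate block gave 0 each; median-ratio rescaling gave 11 between siRpl14 and siRpl11. Leaving out 1 library at a time, the counts ran from 0 to 25 for siRpl14, from 5 to 20 for siRpl11 and from 1 to 19 for siRpl14+siRpl11, each against siNT; from 0 to 2 for siRpl14+siRpl11 against siRpl14, from 0 to 3 for siRpl14 against siRpl11, from 0 to 8 for the interaction in set 1, and from 0 to 1 for siRpl14+siDux against siNT in set 3. The other results, siRpl14+siRpl11 against siRpl11 and the remaining 4 of set 3, gave 0 under all settings. With 1 library of a group left out, the lone sample is assumed to vary like the other groups.

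Replicate numbers are all that same-numbered samples share. The correlation of replicate differences between groups ran from -0.495 to 0.497 in set 1 and from 0.0392 to 0.0627 in set 3. In set 1 it was 0.497 between siRpl11 and siRpl14, and -0.477 and -0.495 between these and siRpl14+siRpl11. Replicate differences were thus partly shared in set 1, but not with 1 sign by number, so the numbers were not taken as pairs. The siRNA target stood lower in replicate 2 for siRpl14 and for siRpl11. Both targets stood lower in replicate 1 for siRpl14+siRpl11. The part of these target levels in the correlations was not tested. The replicate block gave 14, 16 and 15 members called for siRpl14, siRpl11 and siRpl14+siRpl11 against siNT, 2 between siRpl14 and siRpl11, and 0 for the interaction in set 1 and in every comparison of set 3. Depth is unknown, and the low values of set 3 limit what its 0 calls can show.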

Other observations

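The ratio of Cdt1 to Gmnn, the licensing factor and its inhibitor, was computed after their values were seen. In FPKM it was 0.599 and 0.675 in siNT of set 1, 0.732 and 0.83 with siRpl14, 0.794 and 0.977 with siRpl11 and 1.15 and 1.01 with siRpl14+siRpl11. In the single libraries of set 2 it was 0.689 for siNT, 0.858 for siDux, 0.89 for siRpl14 and 0.873 for siRpl14+siDux. In set 3, where Cdt1 was low, it was 0.0177 and 0.125 in siNT and listed at 0 and at 0.0457 with siRpl14. All 6 knockdown libraries of set 1 were above siNT, which did not hold for siRpl14 in set 3; no test was made of the ratio.

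Within groups, the 2 siRpl14 libraries of set 1 differed by a median of 0.27 (log2) over the members and 0.19 over all genes, whereas the 2 siNT libraries differed by 0.09 over the members and 0.14 over all genes.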
